A study of Arabidopsis thaliana with 12 samples.

Results

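The comparison set Arabidopsis seedlings that carried induced FUS3 and grew on sucrose against wild-type seedlings that had neither. It used 6 of the 12 arrays of the study, chosen by title, 3 labelled FUS3 with sucrose and 3 labelled WT without sucrose. The FUS3 seedlings were of 1 line, ESTpro:FUS3-strong line 2-8, germinated with 5 µM estradiol as inducer on 1/2MS medium with 1.5% sucrose. The WT seedlings germinated on 1/2MS medium without sucrose. The other arrays, 3 of FUS3 without sucrose (line 2-8 with estradiol) and 3 of WT with 1.5% sucrose, served as the intermediate groups. All seedlings were 8 days old and whole-seedling RNA of triplicate biological samples was hybridised to ATH1 arrays. The labels tie the estradiol to line 2-8, while the design text speaks of inducing conditions for both genotypes, so whether WT received estradiol was not settled. With 1 line, effects of the line and of FUS3 cannot be told apart. If WT received no estradiol, effects of estradiol cannot be told apart from these either.

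FUS3 is a B3-domain transcription factor of the seed maturation programme, in which embryos lay down storage proteins and oil and prepare for drying. It acts beside LEC1, LEC2 and ABI3 and is normally shut off at germination. An inducible transgene therefore brings a seed regulator into green, vegetative tissue. Sucrose in the medium feeds seedlings that otherwise live on their own photosynthesis, and sugars are known to lower photosynthetic gene expression and to raise anthocyanin and starch synthesis. The comparison spans both changes at once, and the intermediate groups show the state after one of them.

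Each probe set gave a deposited linear MAS5 signal, with every array scaled to the same trimmed mean. In all, 22746 probe sets without the array's own controls were tested, and 13513 of them name a single gene. FUS3 itself is not named among them, so the transgene's RNA was not analysed here and the label "FUS3" could not be checked directly. Seedling leaf genes were present in both groups: RCA, the activase of Rubisco, had 29664, 28942 and 30171 in FUS3 with sucrose, against 42365, 45539 and 40002 in WT without sucrose. Signals of different probe sets do not share one scale of transcript abundance, so levels below are compared within a probe set. Whole seedlings mix tissues, and fewer cells of a type cannot be told apart from less RNA per cell.

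With limma on log2(signal + 16) and Benjamini-Hochberg adjustment, 10841 probe sets (47.7%) differed between FUS3 with sucrose and WT without sucrose. Of these, 6067 (26.7% of all tested) were higher and 4774 (21.0%) lower in FUS3 with sucrose. The split depended on scaling: 5083 were higher and 5800 lower after quantile normalization, and 4199 and 6816 once each array's median was subtracted. The median log2 change over all probe sets was 0.05, -0.05 and -0.15 in these 3 scalings. The median standard error of a log2 change was 0.15. In 12924 probe sets (56.8%) the 3 arrays of one group all lay above the 3 of the other. A lack of overlap in a gene named below was therefore common here.

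Changes of small size made up most calls, and the large ones were unequal in direction. At least 2-fold, 2105 probe sets (9.25%) were higher and 1551 (6.82%) lower in FUS3 with sucrose. At least 4-fold, 640 were higher and 263 lower. At least 16-fold the counts were 186 and 7, and at least 64-fold they were 97 and 0. The added 16 caps the size of a fall or rise for a gene whose low group lies near 0, in either direction.

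In absolute signal the losses were the more numerous. Among called probe sets, mean signal was at least 1000 units higher in FUS3 with sucrose for 1302 and at least 1000 units lower for 1498. At 10000 units the counts were 66 gains and 130 losses. At 30000 units they were 19 gains and 1 loss. Losses outnumbered gains up to 10000 units, and gains outnumbered losses at the extreme. These counts were made on the deposited signal alone, with no other scaling tried.

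The probe sets behind the gains and losses began from different levels. The 2105 probe sets that were at least 2-fold higher had a median signal of 626 in FUS3 with sucrose, 236 in FUS3 without sucrose, 226 in WT with sucrose and 128 in WT without sucrose. They took 14.4% ± 0.587 of the summed signal in FUS3 with sucrose and 2.73% ± 0.120 in WT without sucrose (SD, n = 3 each). The 1551 that were at least 2-fold lower had a median signal of 571 in FUS3 with sucrose, against 1749 in WT without sucrose. Their share was 7.56% ± 0.264 in FUS3 with sucrose, against 20.6% ± 0.231 in WT without sucrose. These shares describe probe sets picked for their change and carry no test. Mean signal passed 10000 for 88 of the higher set in FUS3 with sucrose and for 0 in WT without sucrose. It passed 10000 for 35 of the lower set in FUS3 with sucrose and for 165 in WT without sucrose.

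A full switch ran one way. In 117 probe sets, 71 of which name a gene, all 3 FUS3 arrays with sucrose lay over 1000 and all 3 WT arrays without sucrose lay under 100. The reverse, under 100 in FUS3 with sucrose and over 1000 in WT without sucrose on every array, held for 0 probe sets. With limits of 300 and 3000 the counts were 99 and 0, and with array medians made equal they were 110 and 0. Over the 117 the median of the mean signals was 6081 in FUS3 with sucrose, 277 in FUS3 without sucrose, 26.2 in WT with sucrose and 20.1 in WT without sucrose. FUS3 without sucrose had 27 of them over 1000 on all 3 arrays and 16 under 100 on all 3. WT with sucrose had 0 over 1000 and 99 under 100. Just inside the limit, AT5G50360 had a lowest FUS3 array of 1024 with sucrose, and just outside it AT2G14520 had 998.

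**Figure D1:**
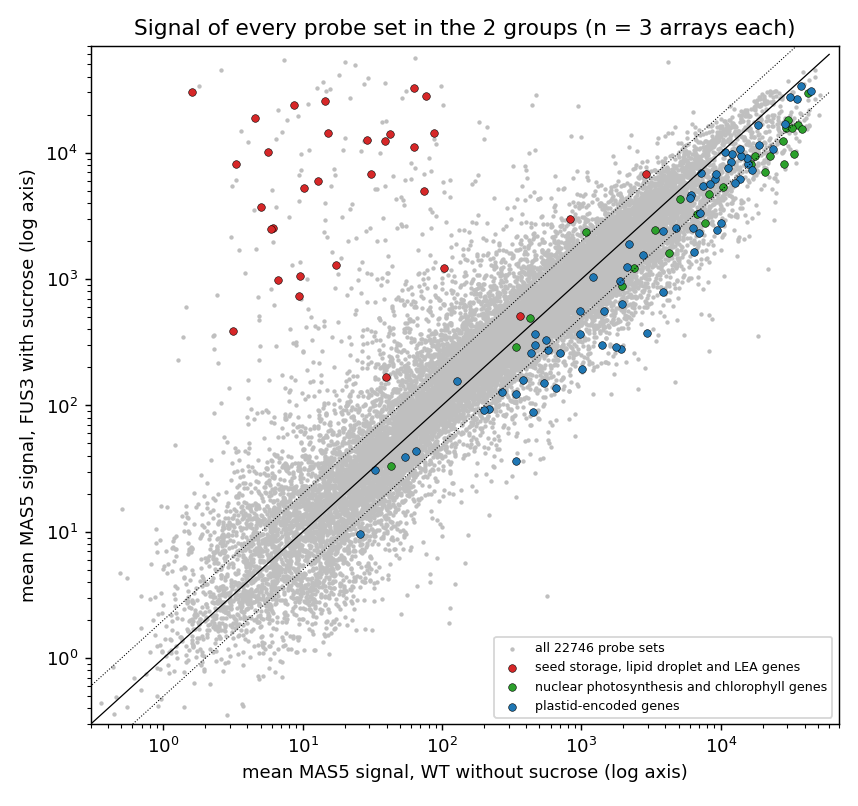
Mean signal of each probe set in FUS3 with sucrose (vertical) against WT without sucrose (horizontal), both on log axes, with members of the named gene groups coloured. The solid line marks equal signal and the dotted lines a 2-fold difference. Many seed genes lie in the upper left, while others, such as AT3G05500 and AT2G18540, lie nearer the line of equal signal. In the upper left 117 probe sets were over 1000 on each FUS3 array with sucrose and under 100 on each WT array without sucrose. The reverse held for 0 probe sets.

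Storage protein genes stood at the far end of the distance. The seed storage list held 5 measured members, all cupin-type genes in the fold of the seed globulins, and 5 of 5 rose, with a median log2 change of 8.89 against 0.05 over all probe sets. That median was 10.71 with 1 added and 7.99 with 64 added. Over the 5, summed signal ran from 83339 to 87927 in FUS3 with sucrose and from 114 to 137 in WT without sucrose.

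PAP85, a vicilin-like storage globulin, had 32045, 31940.0 and 32962 in FUS3 with sucrose, against 55.5, 72.0 and 62.4 in WT without sucrose. The groups were far apart and the 3 FUS3 arrays differed little among themselves. Its mean was 510.4 times as high, a log2 change of 8.68 (SE 0.11) with a limma adjusted p of 9.39e-16. FUS3 without sucrose averaged 3985 ± 169.6 and WT with sucrose 29.9 ± 6.70 (SD, n = 3), so that the first lay between the end points and the second near the WT one.

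AT1G03890, a cruciferin-type globulin, had 17641, 19568 and 19011 in FUS3 with sucrose, against 2.26, 4.14 and 7.32 in WT without sucrose. Every WT array was near 0 and every FUS3 array was in the upper range of the chip. The log2 change was 9.84 (SE 0.17), and FUS3 without sucrose averaged 422. AT2G28490, another cupin gene, had 23161, 25775 and 22985 in FUS3 with sucrose, against 1.72, 12.1 and 12.1 in WT without sucrose, a log2 change of 9.96 (SE 0.37). AT4G36700, also a cupin gene, averaged 10201 ± 327 in FUS3 with sucrose and 5.65 ± 2.93 in WT without sucrose. The weakest member was AT2G18540, with 149, 208 and 149.8 in FUS3 with sucrose, against 46.8, 42.0 and 30.5 in WT without sucrose. Its groups did not overlap either, but its log2 change was only 1.73 (SE 0.23).

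Oil-body genes rose as well. Oleosins coat the oil bodies of seeds, and lipid droplet-associated proteins and seipins act on droplets in seeds and leaves. Of the 8 measured members of the lipid droplet list, 8 rose, with a median log2 change of 6.47, or 6.97 with 1 added and 5.67 with 64 added. Their summed signal ran from 64414 to 74684 in FUS3 with sucrose and from 3906 to 4155 in WT without sucrose.

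OLEO3, an oleosin, had 13469, 15443 and 14219.6 in FUS3 with sucrose, against 108, 90.4 and 63.2 in WT without sucrose, a log2 change of 7.14 (SE 0.15). The oleosin AT3G01570 had 26923, 29694 and 28438 in FUS3 with sucrose, against 79.5, 97.3 and 51.6 in WT without sucrose. Neither gene's groups came near each other. In FUS3 without sucrose they averaged 1155 ± 92.0 and 2517 ± 144, and in WT with sucrose 61.1 and 70.3. Among further oleosins, AT2G25890 averaged 6000.5 in FUS3 with sucrose and 12.9 in WT without sucrose, and AT3G18570 averaged 5231 and 10.2 in the same groups. Their log2 changes were 7.71 and 7.66.

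Droplet genes other than oleosins changed by very different amounts. The droplet-associated protein gene AT1G67360 had 2726, 3461 and 2769.7 in FUS3 with sucrose, against 688, 930.3 and 886 in WT without sucrose, a log2 change of 1.82 (SE 0.12). AT3G05500 of the same family had 6359, 7476 and 6628 in FUS3 with sucrose, against 2938, 2679.8 and 3068 in WT without sucrose. The third family member, AT2G47780, averaged 4997 in FUS3 with sucrose and only 74.7 in WT without sucrose. The seipin AT5G16460 had 319.8, 434 and 409.6 in FUS3 with sucrose, against 2.05, 3.38 and 4.07 in WT without sucrose. Thus the droplet list joined genes switched from near background and genes already expressed in WT.

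Both measured enzymes of the triacylglycerol assembly list rose. AT3G44830, a phospholipid:diacylglycerol acyltransferase-type enzyme, had 222, 276 and 168 in FUS3 with sucrose, against 3.09, 10.6 and 22.1 in WT without sucrose, a log2 change of 3.12 (SE 0.36). GPDHC1, a cytosolic glycerol-3-phosphate dehydrogenase, had 2157, 1837 and 2115 in FUS3 with sucrose, against 1242, 1196 and 1251 in WT without sucrose, a change of 0.72. The groups did not overlap for either gene, as in 56.8% of all probe sets.

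The plastid fatty acid list, which supplies the acyl chains for oil, did not move one way. Of 8 members, 2 rose and 5 fell, with a median log2 change of -0.30, beside 26.7% of all probe sets higher and 21.0% lower. FaTA, an acyl-ACP thioesterase that releases chains from the plastid, had 871, 894 and 946 in FUS3 with sucrose, against 289, 379.7 and 259 in WT without sucrose, a rise of 1.52 (SE 0.14) with no overlap. The second thioesterase type, FATB, fell by 0.44, with 2871, 3220.4 and 2834 in FUS3 with sucrose, against 3448, 4351 and 4417 in WT without sucrose. AT4G16155, a plastid dihydrolipoyl dehydrogenase, fell by 0.85. The other members had changes between -0.68 and 0.26. The rise of AT2G22230 was lost when array medians were subtracted. The fall of AT5G10160 was lost after quantile normalization and in 3 fits that left out 1 array, the highest adjusted p being 0.101 (replicate 1 of WT without sucrose left out). After quantile normalization, 3 rose and 4 fell.

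Late embryogenesis abundant (LEA) genes encode hydrophilic proteins that accumulate as seeds dry. All 18 measured members of the LEA list were higher in FUS3 with sucrose, with a median log2 change of 7.21 and a range of 0.47 to 10.75. With 1 added the median was 8.37 and with 64 added it was 5.98. The smallest of these rises, that of COR15B, was lost under both other scalings, and when the first FUS3 array with sucrose (adjusted p = 0.0642) or the first WT array without sucrose (0.0524) was left out. Summed over the list, signal ran from 136096 to 165175 in FUS3 with sucrose and from 681 to 828 in WT without sucrose. The dehydrin COR47, which fell, was not in this list and is given with the hormone and stress genes below.

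AT3G15670, an LEA gene, had the largest log2 change of any called probe set that names 1 gene. It had 27604, 32113 and 31448 in FUS3 with sucrose, against 1.72, 1.57 and 1.52 in WT without sucrose. The WT values lie at the bottom of the scale, so the log2 change of 10.75 (SE 0.30) depends on the added value and ran over 8.86 to 13.51 in the other settings tried. AT3G17520 averaged 14317 ± 1798 in FUS3 with sucrose and 15.1 ± 16.3 in WT without sucrose, and AT4G21020 averaged 8164 and 3.34. The probe set named LEA had 10730.5, 13365 and 13185 in FUS3 with sucrose, against 29.8, 34.0 and 52.9 in WT without sucrose, and AtLEA4-1 averaged 11056 and 62.4. In FUS3 without sucrose the same 5 genes averaged 942, 525, 277, 568 and 487, and in WT with sucrose 10.9, 33.1, 1.89, 33.2 and 71.0. All 5 thus lay between the end points in FUS3 without sucrose, and much nearer to WT on the linear scale.

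Of the regulators around seed maturation, 3 were measured and 2 rose. EEL, a bZIP factor that binds maturation gene promoters, had 2262, 2477 and 2590.2 in FUS3 with sucrose, against 169, 142 and 121 in WT without sucrose, a log2 change of 3.95 (SE 0.14). BBM, an AP2-type embryo factor, had 336, 384 and 342 in FUS3 with sucrose, against 32.6, 2.65 and 45.2 in WT without sucrose. Its 3 FUS3 arrays were close together and its WT arrays were scattered near background, which gives the change of 3.28 (SE 0.42) a wide error. BZIP53, a bZIP factor that activates maturation genes, had 4317, 4196 and 4847 in FUS3 with sucrose, against 4563, 4615 and 4914 in WT without sucrose. These arrays overlap and the change of -0.08 (SE 0.08) did not pass the test, though it did with array medians subtracted. No probe set carries the name LEC1, LEC2 or ABI3, so these regulators were left aside.

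The rest of the largest rises came from several kinds of gene. AT1G47540, of the trypsin-inhibitor family, had 33100.0, 27371 and 32065 in FUS3 with sucrose, against 35.6, 3.42 and 5.01 in WT without sucrose. It averaged 12964 ± 461 in FUS3 without sucrose and 12.3 in WT with sucrose. AT2G15010, of the thionin family of small defence peptides, had 33604, 36923 and 35596 in FUS3 with sucrose, against 27.5, 37.5 and 52.1 in WT without sucrose. All 3 WT arrays of both genes were near background. AT3G54940, a papain-type protease gene, averaged 18066 in FUS3 with sucrose and 7.65 in WT without sucrose. ATOEP16-2, an outer-envelope channel of plastids, averaged 14625 and 7.08 in these groups. AT3G02480, a further member of the LEA list, averaged 25688 and 14.5. The loci that complete the largest rises and gains, with no role given here, are AT3G63040 (log2 change 9.89), AT5G66780 (9.57), AT5G45690 (9.16) and AT1G04560 (8.64). Groups that did not overlap were a condition for the choice of these loci.

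**Figure D2:**
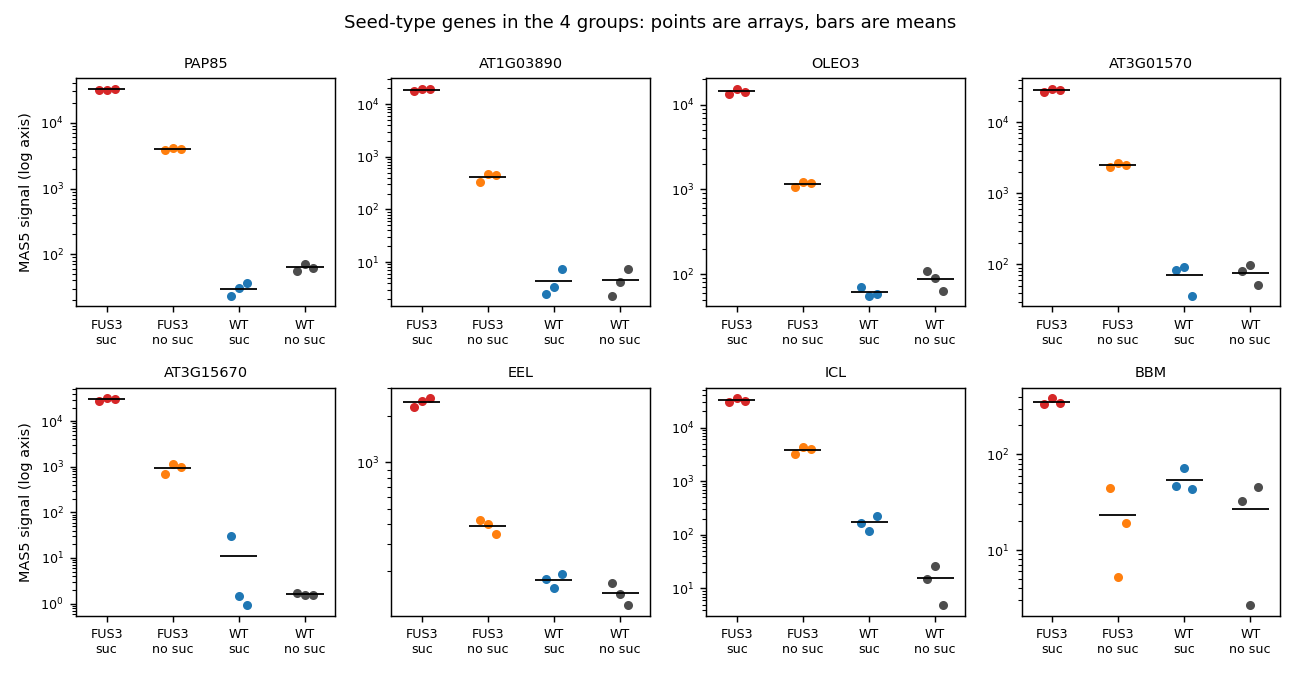
Signal on each array (points, log axis) for seed genes, with FUS3 with sucrose at the left and WT without sucrose at the right and the intermediate groups between them. The bars are means. In each of the 8 panels the 3 FUS3 arrays with sucrose lie above all arrays of the other groups.

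Carbon metabolism changed in several directions. ICL, isocitrate lyase of the glyoxylate cycle that turns stored oil into sugar precursors, had 29832, 35359.7 and 31206 in FUS3 with sucrose, against 15.3, 26.6 and 4.82 in WT without sucrose. The groups lay near opposite ends of the signal range, with a log2 change of 10.05 (SE 0.23) and a limma adjusted p of 3.80e-13. ICL was at 3867 ± 550.2 in FUS3 without sucrose and 170.1 ± 52.3 in WT with sucrose. The lipase SDP1, which starts oil breakdown, went the other way with 1113, 1152 and 984 in FUS3 with sucrose, against 1596, 1659.5 and 1715 in WT without sucrose, and fell by 0.61. Its relative SDP1-LIKE had 197, 191 and 233 in FUS3 with sucrose, against 50.1, 30.1 and 34.9 in WT without sucrose, and rose by 2.05. AIM1, a multifunctional beta-oxidation enzyme, averaged 3612 ± 214 and 3479 ± 128 in the same groups and did not pass the test.

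Genes known to rise when plants are short of sugar were lower in FUS3 with sucrose. The list held 4 enzymes of leucine breakdown and its electron transfer, and 4 of 4 fell, with a median log2 change of -1.62. MCCA, a subunit of methylcrotonyl-CoA carboxylase, had 1064, 1044 and 1024 in FUS3 with sucrose, against 5969.9, 5314 and 4871 in WT without sucrose. The groups were well separated and MCCA fell by 2.34. Its partner subunit MCCB fell by 0.91, IVD, isovaleryl-CoA dehydrogenase, by 1.68 and ETFQO, which passes their electrons on, by 1.57. WT with sucrose had 1111 for MCCA and FUS3 without sucrose 2018, and MCCA in FUS3 with sucrose was not called different from WT with sucrose (log2 difference -0.09, limma adjusted p = 0.564).

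The largest falls had different intermediate levels. AT2G05540, a glycine-rich protein gene, had 293, 326 and 436 in FUS3 with sucrose, against 19789, 17179 and 18536 in WT without sucrose. It was 52.6 times as high in WT without sucrose and had the largest log2 fall among called probe sets that name 1 gene, at -5.67 (SE 0.24). The intermediate groups averaged 12787 in FUS3 without sucrose and 1825 in WT with sucrose. AT3G15450, of the aluminium-induced protein family, had 3200.3, 2681 and 2935 in FUS3 with sucrose, against 24059, 23083 and 24613 in WT without sucrose, a change of -3.02 (SE 0.12). Further called losses were AT2G20670 (-3.71), AT2G15960 (-3.30), AT1G67865 (-3.77), AT4G27300 (-3.13) and AT1G13650 (-3.21 on the log2 scale). Of these, AT1G67865 and AT4G27300 were not low in WT with sucrose, at 3146 and 2467.

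CC-type glutaredoxins, a plant-specific class of small redox proteins, supplied 4 of the 12 largest falls. AT3G62950 had 3.86, 3.93 and 1.53 in FUS3 with sucrose, against 631, 464 and 602 in WT without sucrose, a change of -4.92 (SE 0.29). AT5G18600 had 383, 244 and 461 in FUS3 with sucrose, against 5193, 5454 and 5687 in WT without sucrose. AT4G15700 averaged 47.2 in FUS3 with sucrose and 604 in WT without sucrose, and AT4G15690 53.1 and 572. The 4 were grouped after their values were seen. Of the 3 class members known by symbol, ROXY2 fell by 0.63 and GRX480 rose by 0.69, a call lost under both other scalings. ROXY1 had a change of -0.43 that did not pass the test, but it passed in 5 other settings, at -0.75 after quantile normalization and -0.63 with array medians subtracted.

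Anthocyanin genes rose. Of 9 measured members of the flavonoid list, 7 rose and 0 fell, with a median log2 change of 1.80. DFR, the dihydroflavonol reductase that commits the pathway to anthocyanin, had 1943, 2419 and 1636 in FUS3 with sucrose, against 139, 143 and 200.5 in WT without sucrose, a change of 3.51 (SE 0.20). The groups did not overlap, and the levels of DFR were 439 ± 52.1 in FUS3 without sucrose and 968 ± 288 in WT with sucrose. The anthocyanin glucosyltransferase AT4G14090 rose by 3.41, the glycosyltransferase UF3GT by 2.64 and the malonyltransferase AT5MAT by 2.64. CHIL, a chalcone isomerase-like protein, rose by 1.80. BAN, which makes the precursors of seed-coat tannin, stayed near background at 8.68 in FUS3 with sucrose and 9.26 in WT without sucrose.

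Starch genes split. Of 7 members, 3 rose and 2 fell, with a median log2 change of -0.03, beside 26.7% of all probe sets higher and 21.0% lower. APL3, a large subunit of ADP-glucose pyrophosphorylase, had 871, 769 and 693 in FUS3 with sucrose, against 91.4, 111 and 119 in WT without sucrose, a change of 2.69 (SE 0.16). Its relative APL4 rose by 1.53, so both measured subunits of this first committed step of starch synthesis were higher. The symbol PWD, for a dikinase that marks starch for breakdown, belongs to a pair of loci. AT5G26570 fell by 0.48 and AT4G24450 rose by 0.67. The branching enzyme SBE2.2 fell by 0.38, a call lost in 8 of the settings tried, with its highest adjusted p, 0.188, when replicate 3 of the FUS3 arrays with sucrose was left out. The changes of DPE1 (-0.03) and the amylase AMY1 (-0.21) did not pass the test, although DPE1 did with array medians subtracted (-0.23).

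Sugar transporters also had calls each way, with 7 of 19 higher and 6 lower, beside 26.7% of all probe sets higher and 21.0% lower. SWEET10, a sucrose exporter, had 43.4, 31.6 and 39.8 in FUS3 with sucrose, against 483, 620.3 and 495 in WT without sucrose, a change of -3.33 (SE 0.24). SWEET2 and SWEET17, vacuolar carriers, fell by 2.05 and 1.58, and SWEET11, which loads the phloem, by 1.09. SWEET14 rose, with 306, 401 and 227 in FUS3 with sucrose, against 41.5, 10.7 and 34.0 in WT without sucrose. The SWEET family thus had members that moved each way. TMT2, a vacuolar importer, rose by 1.06. Glycolysis was thinly covered: PPDK, pyruvate orthophosphate dikinase, rose by 0.50, and GAPC2 and cwINV6 did not pass the test.

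**Figure D3:**
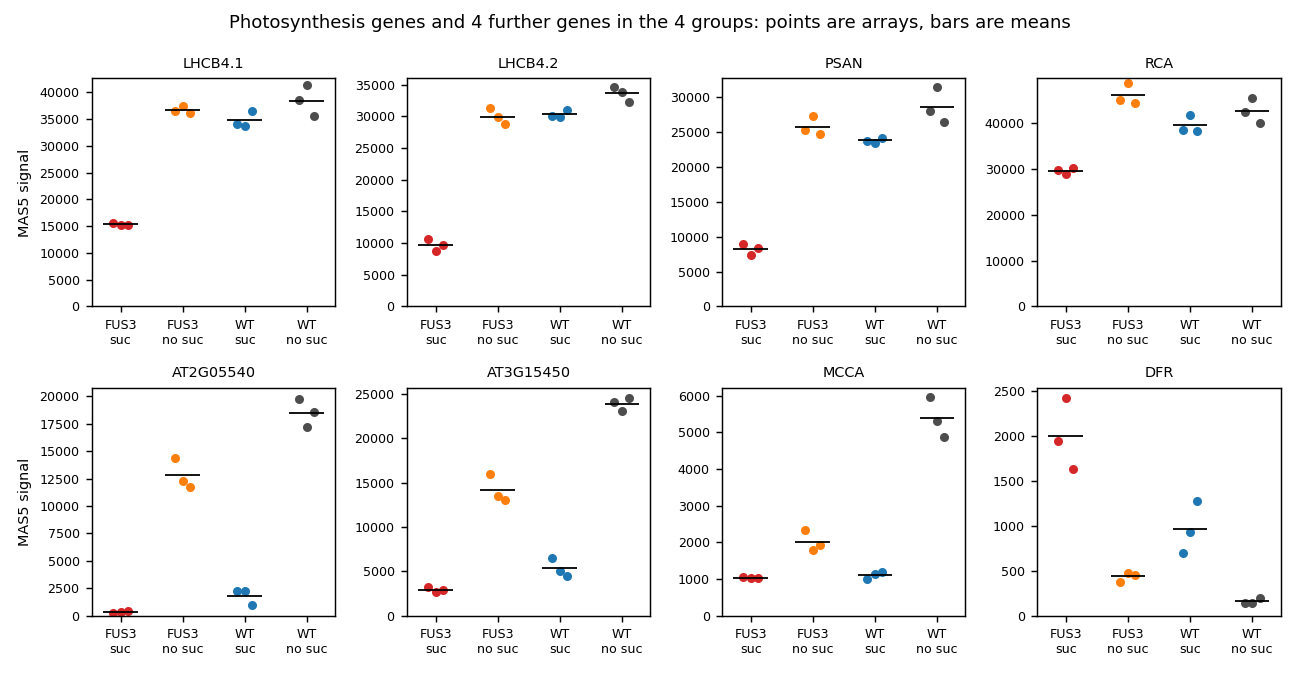
Signal on each array (points, linear axis from 0, bars are means) for 4 photosynthesis genes and 4 further genes named above, with FUS3 with sucrose at the left, the intermediate groups between and WT without sucrose at the right. Except DFR, each gene was lower in FUS3 with sucrose than in WT without sucrose, and for LHCB4.1, LHCB4.2 and PSAN both intermediate groups lie near WT without sucrose.

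Photosynthesis genes made up 6 of the 8 largest losses of mean signal among called probe sets that name 1 gene. Of the 10 measured nuclear photosystem and light-harvesting genes, 8 fell and 1 rose, with a median log2 change of -1.13. Their summed signal ran from 92698 to 99305 in FUS3 with sucrose and from 212234 to 236988 in WT without sucrose. FUS3 without sucrose ranged from 210716 to 221135 and WT with sucrose from 194235 to 200017. So neither intermediate group came near the level of FUS3 with sucrose.

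LHCB4.1, an antenna protein of photosystem II, had 15531, 15180.2 and 15228 in FUS3 with sucrose, against 38512, 41299 and 35615 in WT without sucrose. The mean difference was -23162 units, although the log2 change was only -1.33 (SE 0.07). LHCB4.2 had 10708, 8791 and 9734 in FUS3 with sucrose, against 34677, 33871 and 32274 in WT without sucrose, and PSAN, a luminal subunit of photosystem I, had 8958, 7365 and 8325 against 28016, 31492 and 26407 in the same groups. The groups did not overlap in these 3 genes, which was a condition for ranking a loss. LHCB4.3, the third isoform, went the other way with 2234, 2209.9 and 2673 in FUS3 with sucrose, against 887, 1062 and 1298 in WT without sucrose, a rise of 1.13 (SE 0.15). It averaged 2543 ± 349.9 in FUS3 without sucrose and 2588 ± 451 in WT with sucrose.

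PSBY, PSBW and PSAE-1 of the photosystems fell by 1.12, 1.26 and 0.75. ATPC1, the regulatory gamma subunit of the plastid ATP synthase, fell by 1.04, while its relative ATPC2 (0.21) did not pass the test. PGRL1B of cyclic electron flow fell by 1.13. Outside the list, the losses of largest signal included AT2G26500, a cytochrome b6f subunit, which had 13074, 10576 and 13305 in FUS3 with sucrose, against 37448, 36379.7 and 35586 in WT without sucrose. AT1G51400, a small photosystem II protein, averaged 6739.6 ± 227 in FUS3 with sucrose and 24859 ± 891 in WT without sucrose.

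All 7 measured Calvin cycle and photorespiration genes fell, with a median log2 change of -0.92. RCA fell by 0.52 and PRK, which remakes the CO2 acceptor, by 0.90. SBPASE, which acts earlier in that regeneration, had 9565, 8468 and 10061 in FUS3 with sucrose, against 17897, 16758 and 18506 in WT without sucrose. The groups did not overlap. HPR, the peroxisomal hydroxypyruvate reductase of photorespiration, fell by 1.18 and AT1G80380, a glycerate kinase, by 1.47. The smallest fall was that of the phosphoglycerate kinase gene AT1G56190, at -0.26.

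Of 9 chlorophyll synthesis genes, 7 fell and 0 rose, with a median log2 change of -0.95. CHLM, a methyltransferase of the magnesium branch, had 7434, 6095 and 7686 in FUS3 with sucrose, against 19623, 22420.3 and 20051 in WT without sucrose, a change of -1.55 (SE 0.10). PORB, a light-dependent protochlorophyllide reductase, fell by 0.97, and HEME1 and HEME2 of the porphyrin branch by 1.40 and 1.05. HEMA2 (-0.24) and HEMA3 (-0.12) did not pass the test, although HEMA2 fell under both other scalings, by 0.48 after quantile normalization and 0.44 with array medians subtracted.

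Of 69 plastid-encoded genes, 42 fell and 0 rose, with a median log2 change of -0.80. With medians subtracted, 52 fell, and without moderation 36 fell. With 1 of the 6 arrays compared left out, the count was 36 to 42. Those of the photosystems, cytochrome b6f, ATP synthase and Rubisco numbered 33, and 27 fell. Of 10 for the NADH dehydrogenase-like complex, 6 fell, and of 19 for ribosomal proteins and the polymerase, 4 fell. Over all probe sets 21.0% were lower, and the ribosomal and polymerase genes were close to that share. Differences between these shares were not tested. The largest falls were ndhJ, with 399.7, 391 and 336 in FUS3 with sucrose, against 3438, 3154 and 2239 in WT without sucrose, and ndhK, with 335, 263 and 272 against 2052, 1913 and 1352 in the same groups. psbA, for the D1 protein of photosystem II, had 659, 629 and 633 in FUS3 with sucrose, against 1917, 2279.6 and 1671 in WT without sucrose, and fell by 1.57. psbD, for D2, fell by 2.28 and petB of cytochrome b6f by 1.19. The groups did not overlap for these 5 genes, as in 56.8% of all probe sets. A ribosomal RNA control moved with the groups as well.

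The 25S rRNA control probe set averaged 9915 ± 701 in FUS3 with sucrose and 2491 ± 455 in WT without sucrose (SD, n = 3 each), an exact permutation p of 0.1, the smallest that 3 against 3 arrays allow. FUS3 without sucrose averaged 2088 ± 478 and WT with sucrose 3491 ± 1023. Of 6 ratios of 3 prime to 5 prime signal in actin, GAPDH and ubiquitin, 2 had the smallest p. The actin ratio was 21.7 ± 0.489 in FUS3 with sucrose and 15.6 ± 1.26 in WT without sucrose (exact permutation p = 0.1, adjusted 0.30). A second GAPDH ratio was 0.997 ± 0.0357 in FUS3 with sucrose and 0.891 ± 0.0384 in WT without sucrose (exact permutation p = 0.1, adjusted 0.30). The part of these values in the falls above, or in any other result, was not tested. Of 7 reference genes used for normalizing plant expression, 1 fell and 6 did not pass the test, with a median change of -0.10, but 5 fell once array medians were subtracted.

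**Figure D4:**
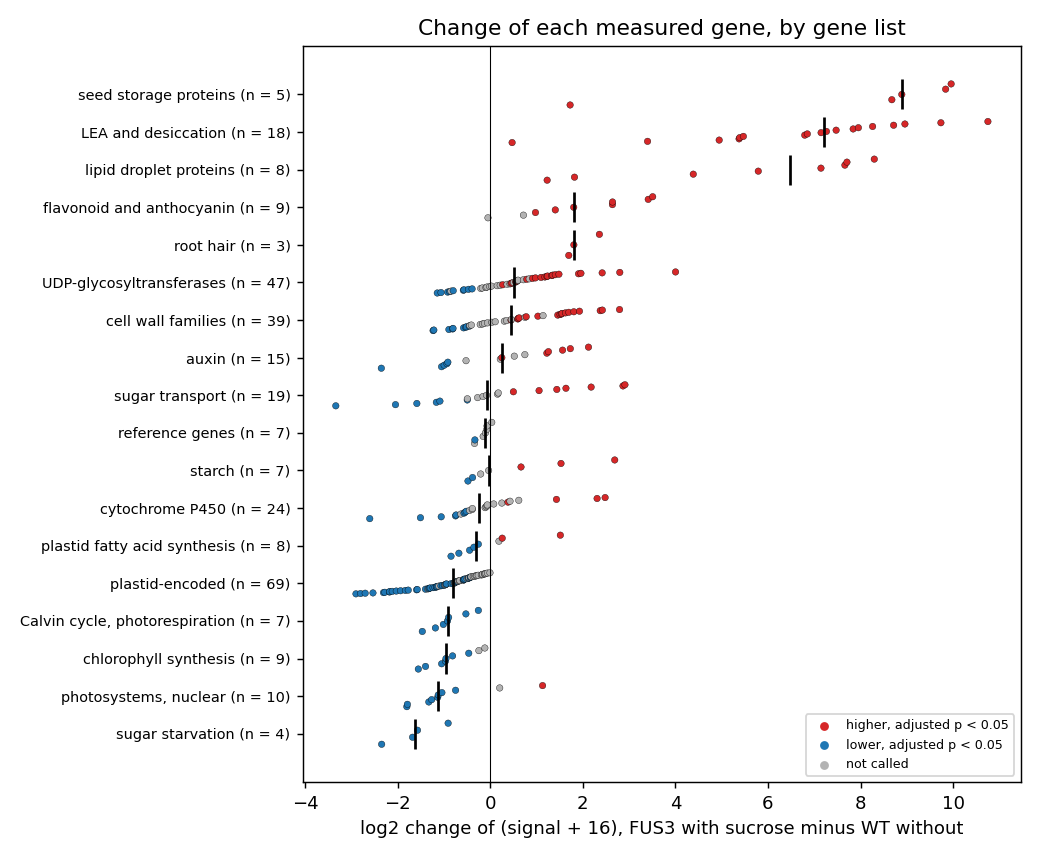
Log2 change (FUS3 with sucrose minus WT without sucrose) of each measured member (points) of each gene list, with the list's median as a bar and called members coloured. Seed storage, lipid droplet and LEA lists lie furthest to the right, at medians of 8.89, 6.47 and 7.21, and the photosynthesis and low-sugar lists lie to the left of 0.

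Markers of particular cell types changed in both directions. All 3 root hair genes rose: EXPA7 and EXPA18, expansins of root hairs, by 1.81 and 1.70, and HRGP1 by 2.36. Summed over the 3, signal ran from 2668 to 3109 in FUS3 with sucrose and from 600.3 to 670.01 in WT without sucrose. Of the stomatal lineage, FMA, a bHLH factor of guard cell formation, had 156, 132 and 80.9 in FUS3 with sucrose, against 523, 678 and 709 in WT without sucrose, and fell by 2.26. SPCH and MUTE, which act earlier, had changes of -0.49 and -0.42 that did not pass the test, although all 3 fell under both other scalings. The trichome gene TRY fell by 1.33 at low signal, 23.2 in FUS3 with sucrose and 80.8 in WT without sucrose. The other of 2 measured trichome genes had a change of 0.09 that did not pass the test. The endosperm genes AGL80 and AGL62 rose by 1.16 and 1.12, the call for AGL62 being lost in 6 settings, 3 of them leaving out 1 array (adjusted p up to 0.0923, for replicate 2 of WT without sucrose). Of 4 pollen genes only TUA1, an alpha-tubulin, was called, and it fell by 1.13. Pollen markers ANX1 and ANX2 were near 0 in both groups. How far tissue proportions enter the other results was not tested.

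Hormone and stress genes gave a few large single changes. PDF2.1, a defensin-type peptide gene, had 23812, 23542 and 23467 in FUS3 with sucrose, against 879.9, 904 and 1052 in WT without sucrose, and rose by 4.62. COR15A, a chloroplast protein of cold and abscisic acid responses, had 1431, 1355 and 907 in FUS3 with sucrose, against 65.4, 133 and 112 in WT without sucrose. COR47, a dehydrin of the same responses, fell by 1.18. The list was thus mixed, with 3 of 6 genes higher and 1 lower, or 2 and 2 with array medians subtracted. Over all probe sets 26.7% were higher and 21.0% lower. GID1A and GID1B, gibberellin receptors, fell by 0.86 and 0.63, and the other 3 gibberellin genes did not pass the test. Among these 3, GID1C (-0.40) fell under both other scalings, at -0.71 after quantile normalization and -0.60 with array medians subtracted. BHLH101, a factor of the iron response, rose by 3.37, and WRKY22 fell by 1.81.

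The intermediate groups show how far one change alone went. FUS3 with sucrose differed from FUS3 without sucrose in 8939 probe sets (39.3%) and from WT with sucrose in 8761 (38.5%). These comparisons share the FUS3 arrays with sucrose, so their counts are not independent. Against FUS3 without sucrose the log2 differences were 3.02 for PAP85, 3.62 for OLEO3, 3.06 for ICL and -1.62 for LHCB4.2. Against WT with sucrose they were 9.47 for PAP85, 7.55 for OLEO3, 7.47 for ICL and -1.64 for LHCB4.2.

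On the log2 scale the whole distance equals the FUS3 change without sucrose, plus the sucrose change in WT, plus an interaction term. That term differed from 0 in 5253 probe sets (23.1%), 2224 with a positive sign (9.78%) and 3029 with a negative one (13.3%). A positive term means that FUS3 with sucrose was higher than the separate changes add up to. All 5 storage genes, 7 of 8 droplet genes and 17 of 18 LEA genes had a called term. It was 3.81 (SE 0.16) for PAP85, 4.02 (SE 0.21) for OLEO3 and 2.33 (SE 0.19) for EEL. The term of ICL was 0.48 and was not called (adjusted p 0.342). Among losses, LHCB4.2 had -1.48 (SE 0.11) and PSAN -1.39 (SE 0.12), whereas the term of MCCA was positive, at 1.33 (SE 0.14). DFR (-0.32, adjusted p 0.487) and APL3 (0.18, adjusted p 0.626) had no called term.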

How the data were processed

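Whole-seedling RNA was measured on 12 ATH1 arrays, 3 in each of 4 groups. The deposited values are linear intensity, made by the authors with MAS5 in Affymetrix Expression Console, per the submitters' processing notes. Software versions and the scaling target: not given in the sources used here. In the values, the mean after trimming 2% at each end was 1000.08 to 1000.09 on every array. Depth has no meaning here, and the number of arrays limits precision.

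Groups were taken from sample titles. log2(intensity + 16) was fitted with limma 3.58.1 in R 4.3.3 (lmFit, contrasts.fit, eBayes with trend, 4 group means, 12 arrays, 8 residual degrees of freedom), with Benjamini-Hochberg adjustment over 22746 probe sets and calls at adjusted p under 0.05. In simulated data with 200 of 22746 probe sets changed, 75% of log2 changes of 1 and 96% of those of 2 were recovered, with 10 false calls. In the real data 47.7% of probe sets were called, so these rates do not measure recovery or false calls there. Control ratios had exact two-sided permutation tests. No sample was dropped and no value imputed.

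Genes were named through the platform's probe table: 13513 probe sets name 1 gene, 503 name several and 8730 are unnamed here. A gene in a list was represented by the probe set with the highest mean. Genes matched by symbol alone to a wrong family were left out after reading the probe table.

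The members and lists were chosen with earlier results of these data known. Named genes were the 12 largest rises and falls that did not overlap, the 8 largest signal gains and losses, up to 6 called members per list or any member of lists of up to 12, and the 6 largest interaction terms each way. Alternatives were an added value of 1 or 64, quantile or median scaling, a filter on the lowest 40%, the 6 arrays alone, a replicate block, fits lacking moderation or its trend, a minimum change of 2-fold, and each of the 6 arrays compared left out in turn. Promoter motifs were planned and not run, since no promoter sequence was used here.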

Additional observations from a re-analysis of the deposited data

Results flagged for a closer look

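In 12 genes the interaction term was among the 6 largest of its sign, so that the FUS3 change differed with sucrose. The positive terms, on the log2 scale, were 6.97 for AT3G58450, 6.40 for AT3G53040, 5.99 for AT3G60730, a pectin methylesterase-type gene, 5.88 for AT5G07330, 5.84 for AT3G22490 and 5.84 for LEA18. AT3G58450 shows the pattern: 3119 in FUS3 with sucrose, 10.2 in FUS3 without sucrose, 7.03 in WT with sucrose and 8.02 in WT without sucrose. LEA18 averaged 12536, 289.7, 19.7 and 29.0 in the same order of groups.

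The negative terms were -5.49 for AT1G76960, -4.87 for OCT1, an organic cation transporter, -4.67 for AT5G58390, a class III peroxidase, -4.43 for AT3G60420, -4.43 for AT5G52760 and -3.98 for AT4G19430. OCT1 averaged 215 in FUS3 with sucrose, 118 in FUS3 without sucrose, 949 in WT with sucrose and 2.46 in WT without sucrose, highest in WT with sucrose. AT5G58390 averaged 37.6, 532, 1243 and 502 in the same order. Between FUS3 with sucrose and WT without sucrose, AT3G60420 had a log2 change of -2.67, and a second probe set of that locus, near background in both groups, had 0.24. AT5G52760 did not pass the test between FUS3 with sucrose and WT without sucrose (limma adjusted p = 0.119), but passed it with 1 added (log2 change -3.16, adjusted p = 0.00954) and on the 6 arrays alone (-1.15, adjusted p = 0.00356).

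The 25S ribosomal RNA control, an array control outside the tested probe sets, had a signal of 9915 in FUS3 with sucrose, against 2491 in WT without sucrose. Its part in the other results was not tested.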

How the results depend on the processing

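The count of 10841 calls lay between 10229 and 11073 under the other scalings, added values, arrays and variance settings. With the lowest 40% of probe sets left out it was 8917, out of fewer probe sets tested. It lay between 9772 and 10050 with 1 of the 6 arrays compared left out. Arrays of the intermediate groups were not left out. With a 2-fold minimum it was 3656 (2105 higher and 1551 lower), and for the interaction term 1959 (826 positive and 1133 negative), by construction of that threshold. The replicate block gave 10958 calls. Same-numbered arrays of FUS3 with sucrose and WT without sucrose did not deviate together (r = -0.00729, 0.0204 and 0.00116). Pairing with the intermediate groups was not checked, so whether the numbers pair samples was not settled. With the block the interaction term was called in 5550 probe sets, against 5253 in the main fit. The interaction term needs all 4 groups and was not run on the 6 arrays alone. The count of probe sets under 100 in FUS3 with sucrose and over 1000 in WT without sucrose was 0 to 1 with 1 array left out, the 1 without replicate 1 of FUS3 with sucrose. The reverse count was 118 to 127. Of 225 named genes called, 10 lost the call in some setting. Over all 269 named genes, 0 of 3986 combinations of gene and setting gave a called change of the opposite sign. Changes of sign without a call were not counted. The calls lost with 1 array left out included COR15B, AT5G10160 and SBE2.2, as given above, and WRKY47 (log2 change -0.38; adjusted p 0.124 without replicate 2 of FUS3 with sucrose, 0.0673 without replicate 2 and 0.0883 without replicate 3 of WT without sucrose). The cause was not tested. Few arrays limit changes near the median error of 0.15, and signals near background, such as WT levels of seed genes, have no reliable ratio.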

Other observations

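Families of the cell wall and of secondary metabolism held called members in both directions, beside 26.7% of all probe sets higher and 21.0% lower. Of 39 expansin and cell-wall genes, 17 rose and 9 fell, with a median log2 change of 0.45. XTH19, which remodels xyloglucan, had 2335, 2119.5 and 2013 in FUS3 with sucrose, against 381, 389 and 436 in WT without sucrose, and EXPA20 rose by 2.79 while EXLA1 fell by 1.23. Of 47 UDP-glycosyltransferases, 21 rose and 9 fell, with a median of 0.50. UGT76E12 rose, with 426 in FUS3 with sucrose and 12.2 in WT without sucrose. Of 20 beta-glucosidases, 9 rose and 3 fell, with a median of 0.18 that became -0.02 with array medians subtracted. BGLU19 had 9005, 10718 and 10318 in FUS3 with sucrose, against 50.8, 41.4 and 16.2 in WT without sucrose, and BGLU28 rose by 4.69.

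Of 24 cytochrome P450 genes, 4 rose and 8 fell, so 12 were called, close to the 47.7% called over all probe sets. CYP71B37 rose by 2.31 and CYP71B22 fell by 2.60. Of 13 glutathione transferases, 5 rose and 3 fell: GSTU25 rose by 2.07 and GSTU18 fell by 1.85. Of 15 auxin genes, 6 rose and 5 fell, and 5 and 6 under both other scalings. These counts stand beside 26.7% of all probe sets higher and 21.0% lower. IAA29, an auxin response repressor, had 357, 424 and 459 in FUS3 with sucrose, against 2355, 1884 and 2284 in WT without sucrose, and fell by 2.35. YUC4 of auxin synthesis rose by 2.12 and its relative YUC2 fell by 1.05.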
